A study of Homo sapiens with 12 samples.

Results

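FERMT3, STIP1, IL17F, AC107959.2, AC125257.1, AL121594.1 and AL671762.1 are 7 of the 67053 genes with a level in the poly-A libraries of transfected HEK293T cells, and all 7 are among the 15183 genes that were tested. They were picked, with results of these data known, for a lower level with the TRIM9 trigger than in the GFP control, to be read beside the gene that lies upstream of each on the same strand. The level is FPKM, read coverage per transcript length scaled by library size, summed over the transcripts of a gene. Because their TRIM9 values chose them, those values are a description here and carry no test.

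HEK293T cells are an established line from human embryonic kidney that carries the SV40 large T antigen. The TRIM9 group received a plasmid whose GFP reporter carries a stretch of TRIM9 in its 3′ untranslated region, the BCL2L11 group one with a stretch of BCL2L11, and the control group a GFP reporter, each as 2 µg of plasmid with RNA taken 48 h later. The stretches are triggers of target-directed microRNA degradation, and the question of the study was whether they lower their microRNAs. Each group has 2 poly-A libraries, given as biological replicates; PEI or lipofectamine carried the plasmid, and the sources used here do not say which one served for each sample.

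RNA polymerase normally stops a short way past the polyadenylation site of a gene, after the RNA is cut there. In stressed, infected or heat-shocked cells transcription is known to run on past many gene ends, and RNA from beyond an active gene can then be counted for the next gene on the same strand. The heat shock factor HSF1 raises the genes of chaperones and co-chaperones, and its binding element is built of inverted GAA units. FERMT3 and IL17F are best known from blood and immune cells, not from kidney cells.

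Of the 7, 2 lie within 20 kb downstream of a heat shock or other active gene of the strand and overlap no such gene. FERMT3 (chr11:64206678-64223886, plus strand) starts 2135 bases after the end of STIP1 (chr11:64185272-64204543, plus strand). IL17F (chr6:52236681-52244500, minus strand) starts 19514 bases after the end of MCM3 (chr6:52264014-52284881, minus strand). STIP1 is itself the upstream neighbour of FERMT3, and its own nearest upstream gene on the strand with a mean FPKM of at least 1, the deubiquitinase gene OTUB1, lies 183461 bases away. AC107959.2 (chr8:23068229-23083619, plus strand) starts 803 bases inside the death receptor gene TNFRSF10B, which is on the opposite strand, and the nearest plus-strand gene upstream, RHOBTB2, ends 48030 bases away at 1.197 to 2.02 FPKM.

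The other 3 overlap genes of their own strand. AC125257.1 (chr17:41848518-41851447, minus strand, 1 exon) lies wholly within the span of KLHL11, which ends at the same base. AL121594.1 (chr14:35122549-35317474, plus strand, 15 exons) spans most of PRORP and PSMA6. AL671762.1 (chr6:31828834-31839719, plus strand, 4 exons) starts inside the heat shock gene HSPA1B, with 1421 bases of overlap, and shares 5112 bases with SNHG32. Each of the 3 also has an active gene of the strand upstream within 20 kb. AC125257.1 starts 15470 bases after ACLY, AL121594.1 9419 after FAM177A1 and AL671762.1 10888 after the heat shock gene HSPA1A. Mean FPKM with TRIM9, BCL2L11 and GFP was 67.2, 69.5 and 73.8 for ACLY and 13.5, 11.7 and 10.6 for FAM177A1. For HSPA1A, which has 5 loci, it was 5.76, 12.1 and 9.61 at this locus. Summed over the loci, HSPA1A came to 53.6 and 43.2 FPKM with TRIM9, 98.3 and 77.1 with BCL2L11 and 91.5 and 119 with GFP. The log2 difference of that sum was -1.10 for TRIM9 minus GFP. Coordinates are those of the deposited tables, whose build is given as hg38 in the submitters' processing notes.

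**Figure D1:**
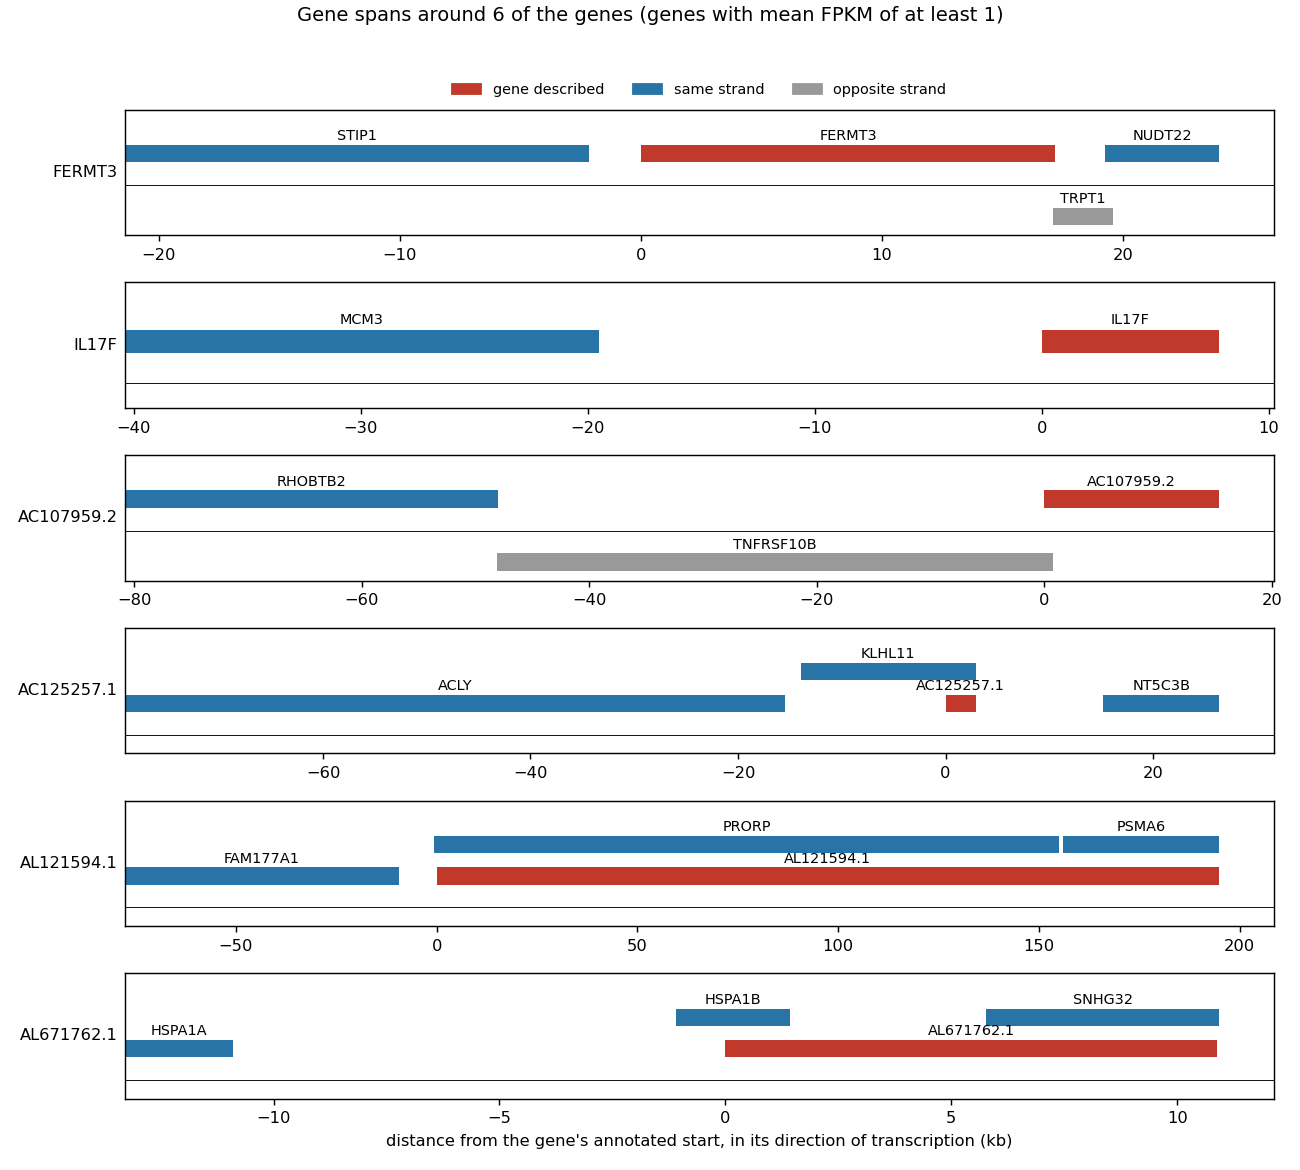
Annotated spans of 6 of the genes (red), of same-strand genes (blue) and opposite-strand genes (grey) beside them with mean FPKM of at least 1, against distance in kb from each gene's annotated start in its direction of transcription. FERMT3 and IL17F follow STIP1 and MCM3 with a gap, AC107959.2 starts within TNFRSF10B on the other strand, and AC125257.1, AL121594.1 and AL671762.1 overlap genes of their own strand.

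Promoter windows of 300 bases (250 before the annotated start and 50 after it, RefSeq GRCh38.p14) were searched for GAANNTTC and TTCNNGAA, each of which reads the same on both strands; 13.5% of 35116 windows hold a match. The windows of FERMT3 (2), MCM3, KLHL11, PRORP (2), PSMA6 (2) and SNHG32 hold none, and the 4 genes named by clone have no window in the table. The matches at STIP1, IL17F, HSPA1B and HSPA1A are shown with 30 bases each because the account turns on these neighbours, with the motif in capitals. They are at chr11:64186173-64186202 (plus strand, 13 bases after a start of STIP1), chr6:52244618-52244647 (minus strand, IL17F), chr6:31827622-31827651 (plus strand, HSPA1B) and chr6:31815426-31815455 (plus strand, HSPA1A).
STIP1: cttctagtaggTTCCAGAAggcggcgcgtg
IL17F: ttttgttccccTTCGGGAAatggaataaaa
HSPA1B: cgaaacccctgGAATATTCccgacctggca
HSPA1A: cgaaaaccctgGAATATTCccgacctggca
A match describes letters in a window and is not a bound site.

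The libraries carried their labels. TRIM9 had 5297 and 3948 FPKM in the TRIM9 libraries, against 1.74 and 2.92 in the GFP libraries. BCL2L11 had 11485 and 11275 FPKM in the BCL2L11 libraries, against 5.40 and 6.15 in the GFP libraries; reads from the plasmid and the chromosomal gene were not told apart. Transcripts with FPKM above 0 numbered 99690 and 109975 with TRIM9, 100723 and 109805 with BCL2L11 and 83584 and 110534 with GFP. Replicate 1 had fewer than replicate 2 in every group, and GFP replicate 1 had the fewest. A level of 1 FPKM corresponded to a mean read depth of 4.11 to 5.34 per base. No pair of the 15 pairs of libraries held identical values (0 of 15). HEK293 markers summed to 633 and 606 FPKM with TRIM9, 495 and 546 with BCL2L11 and 519 and 547 with GFP. Blood cell markers summed to 13.8 and 7.01 FPKM with TRIM9, 10.7 and 7.23 with BCL2L11 and 12.9 and 7.42 with GFP. Of the 22 blood markers 14 were above 0 in some library, and PTPRC, CD3D, CD3E, MS4A1 and HBB are among those listed at 0 in all 6. HBA1, CD14 and CORO1A passed the filter: HBA1 had 7.45 and 3.77 FPKM with TRIM9, 5.61 and 2.71 with BCL2L11 and 7.12 and 2.35 with GFP, and CORO1A had 2.09 and 0.975 with TRIM9, 1.18 and 0.905 with BCL2L11 and 1.12 and 1.11 with GFP. CD14 had 1.41 and 0.653 FPKM with TRIM9, 1.74 and 1.43 with BCL2L11 and 2.89 and 1.76 with GFP (TRIM9 minus GFP -0.72, SE 0.33, limma adjusted p 0.9999, as for the other two). The part of such cells in the levels below was not tested.

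FERMT3 encodes kindlin-3, which activates integrins in blood cells. Its FPKM was 1.96 and 0.958 in the TRIM9 libraries, 5.09 and 2.39 in the BCL2L11 libraries and 11.3 and 11.6 in the GFP libraries. The GFP libraries were highest and close to each other, the TRIM9 libraries lowest, and no groups overlapped. The TRIM9 mean was 12.7% of the GFP mean and the BCL2L11 mean 32.6% of it. On the log2(FPKM + 1) scale the difference was -2.37 for TRIM9 minus GFP (SE 0.39), rank 4 from the lowest of 15183 tested genes. For BCL2L11 minus GFP it was -1.46 (SE 0.39, limma adjusted p 0.9999). That comparison uses the same GFP libraries that chose the gene and is not independent of the choice. In RNA from whole cultures, fewer expressing cells and less RNA per cell cannot be told apart.

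STIP1, the co-chaperone that joins HSP70 to HSP90, showed no difference near the size of that of FERMT3. Its FPKM was 287 and 230 with TRIM9, 346 and 236 with BCL2L11 and 246 and 251 with GFP. The GFP values lay within the range of each other group. The log2 difference was 0.05 for TRIM9 minus GFP (SE 0.35) and 0.20 for BCL2L11 minus GFP (SE 0.35, limma adjusted p 0.9999). As a share of the STIP1 level, FERMT3 stood at 0.681% and 0.416% with TRIM9, 1.47% and 1.01% with BCL2L11, and 4.62% in both GFP libraries. Both sets of libraries showed this order, with set 1 holding replicate 1 of each group and set 2 replicate 2: TRIM9 minus GFP for FERMT3 was -2.06 and -2.69 on the log2 scale.

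Reads of FERMT3 fell mostly on its long annotated forms. The 2 models of 15 exons held 71.4% and 95.4% of its FPKM with TRIM9, 87.6% and 73.7% with BCL2L11, and 57.8% and 83.7% with GFP. Only in GFP replicate 1 did a model of 3 exons reach 3.89 FPKM (ENST00000545896.1). The tables assign reads to annotated transcripts, so RNA between STIP1 and FERMT3 was not measured. The gene after FERMT3 on the strand, NUDT22, starts 2055 bases past its end and had 14.0 and 5.55 FPKM with TRIM9, 15.04 and 9.01 with BCL2L11 and 8.30 and 6.64 with GFP; its TRIM9 minus GFP difference was 0.24 (SE 0.47, limma adjusted p 0.9999).

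IL17F encodes a cytokine of T helper cells. It had 0.179 and 0.314 FPKM with TRIM9, 1.85 and 1.66 with BCL2L11 and 3.51 and 2.72 with GFP. The groups did not overlap, in the order TRIM9, BCL2L11, GFP from low to high. The TRIM9 mean was 7.92% and the BCL2L11 mean 56.3% of the GFP mean, with log2 differences of -1.72 for TRIM9 minus GFP (SE 0.28) and -0.57 for BCL2L11 minus GFP (SE 0.28, limma adjusted p 0.9999). Few reads stand behind the low values: aligned bases came to 0.789 and 1.28 kb with TRIM9, 8.18 and 6.91 kb with BCL2L11 and 12.8 and 9.16 kb with GFP. It entered the test only through the BCL2L11 and GFP libraries. The same holds for AC107959.2, AC125257.1 and AL671762.1, which were also below 1 FPKM in both TRIM9 libraries.

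MCM3, a subunit of the replicative helicase, differed much less than IL17F. Its FPKM was 103 and 88.8 with TRIM9, 107 and 94.7 with BCL2L11 and 143 and 108 with GFP; both TRIM9 libraries were below both GFP libraries, though the gap was small. The log2 difference was -0.37 for TRIM9 minus GFP (SE 0.31) and -0.30 for BCL2L11 minus GFP (SE 0.31), with limma adjusted p of 0.9999 in each. IL17F stood at 0.174% and 0.354% of the MCM3 level with TRIM9, 1.73% and 1.75% with BCL2L11 and 2.46% and 2.51% with GFP. IL17A, the closest relative of IL17F, was listed at 0 in all 6 libraries.

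AC107959.2, an RNA of 3 exons named by its clone, had the lowest TRIM9 levels of all 7 genes. It had 0.0720 and 0.0417 FPKM with TRIM9, 1.02 and 1.27 with BCL2L11 and 2.82 and 2.19 with GFP. The groups did not overlap, in the same order as for IL17F. The TRIM9 mean was 2.27% and the BCL2L11 mean 45.9% of the GFP mean, and the log2 differences were -1.72 for TRIM9 minus GFP (SE 0.26) and -0.70 for BCL2L11 minus GFP (SE 0.26, limma adjusted p 0.9999). Aligned bases were 1.01 and 0.537 kb with TRIM9, against 33.4 and 23.7 kb with GFP.

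TNFRSF10B, the receptor for the death ligand TRAIL whose span covers the start of AC107959.2 on the other strand, had 11.8 and 15.7 FPKM with TRIM9, 16.1 and 24.2 with BCL2L11 and 15.1 and 24.3 with GFP. The groups overlapped, and the TRIM9 minus GFP difference was -0.47 (SE 0.37, limma adjusted p 0.9999). The sources used here do not say whether reads were counted by strand, so reads of the 803 shared bases cannot be assigned with certainty. Another RNA, AC107959.1 (chr8:22984596-23019335, minus strand), was named after its values were seen. It lies past the end of TNFRSF10B (chr8:23020133-23069031) on the same strand and overlaps RHOBTB2 on the opposite strand. AC107959.1 had 0.108 and 0.231 FPKM with TRIM9, 0.805 and 0.875 with BCL2L11 and 1.61 and 1.43 with GFP (TRIM9 minus GFP -1.11, SE 0.25, limma adjusted p 0.9999).

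The next 2 genes stood highest with the BCL2L11 trigger and not with GFP. AL671762.1 had 0.919 and 0.898 FPKM with TRIM9, 23.3 and 15.2 with BCL2L11 and 2.82 and 5.62 with GFP. The BCL2L11 libraries were above both GFP libraries and the TRIM9 libraries below both. The TRIM9 mean was 21.5% and the BCL2L11 mean 457% of the GFP mean, with log2 differences of -1.40 for TRIM9 minus GFP (SE 0.39) and 1.98 for BCL2L11 minus GFP (SE 0.39, limma adjusted p 0.9999).

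HSPA1B, the inducible HSP70 gene in which AL671762.1 starts, had 107 and 76.9 FPKM with TRIM9, 234 and 131 with BCL2L11 and 198 and 207 with GFP. The TRIM9 libraries were below both other groups. The log2 difference was -1.15 for TRIM9 minus GFP (SE 0.39) and -0.21 for BCL2L11 minus GFP (SE 0.39), with limma adjusted p of 0.9999 in each. HSPA1B has 5 loci in the tables, 4 of them off the assembled chromosomes, and reads may be split among them. Summed over the loci it came to 504 and 418 FPKM with TRIM9, 996 and 698 with BCL2L11 and 947 and 1095 with GFP, a log2 difference of -1.15 for TRIM9 minus GFP. AL671762.1 stood at 0.860% and 1.17% of the HSPA1B level with TRIM9, 9.98% and 11.7% with BCL2L11 and 1.42% and 2.71% with GFP. Against the level summed over the loci it stood at 0.183% and 0.215% with TRIM9, 2.34% and 2.18% with BCL2L11 and 0.298% and 0.513% with GFP. SNHG32, the snoRNA host gene at its far end, had 13.7 and 7.64 FPKM with TRIM9, 21.8 and 10.9 with BCL2L11 and 8.73 and 10.7 with GFP, with overlapping groups for TRIM9 and GFP (TRIM9 minus GFP 0.08, SE 0.43, limma adjusted p 0.9999). SNHG32 also has 5 loci, and summed over them it came to 65.9 and 39.7 FPKM with TRIM9, 127 and 66.7 with BCL2L11 and 55.4 and 59.7 with GFP, which turned the TRIM9 minus GFP difference to -0.17.

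AC125257.1 had 0.743 and 0.972 FPKM with TRIM9, 11.5 and 8.34 with BCL2L11 and 3.35 and 7.22 with GFP. The groups did not overlap, and the TRIM9 mean was 16.2% and the BCL2L11 mean 188% of the GFP mean. The log2 differences were -1.69 for TRIM9 minus GFP (SE 0.39) and 0.85 for BCL2L11 minus GFP (SE 0.39, limma adjusted p 0.9999). KLHL11, an adaptor of a ubiquitin ligase whose span holds AC125257.1, had 5.46 and 11.7 FPKM with TRIM9, 0.450 and 9.43 with BCL2L11 and 5.68 and 9.63 with GFP. The single low value in BCL2L11 replicate 1 is the library in which AC125257.1 was highest.

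The bases aligned to AC125257.1 and KLHL11 together had similar group means, but replicates differed widely, so a level sum is not shown. These bases came to 42.6 and 89.5 per 1000000 aligned bases with TRIM9, 37.0 and 94.3 with BCL2L11 and 51.9 and 92.4 with GFP. The SD was 33.2, 40.5 and 28.7 in that order. The mean log2 of the sum differed by -0.17 for TRIM9 minus GFP and -0.23 for BCL2L11 minus GFP. The share of that sum assigned to AC125257.1 was 5.11% and 3.18% with TRIM9, 91.0% and 25.9% with BCL2L11 and 18.9% and 22.9% with GFP. The share was lowest in the TRIM9 libraries, whose values chose the gene, and in BCL2L11 replicate 2 it stood close to the GFP libraries. The sum was lower in replicate 1 than in replicate 2 in every group. How reads were assigned between the overlapping genes was not tested.

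AL121594.1 had 1.99 and 2.51 FPKM with TRIM9, 7.31 and 15.1 with BCL2L11 and 5.33 and 10.7 with GFP. The TRIM9 libraries were below all others, and the BCL2L11 and GFP libraries overlapped. The log2 difference was -1.41 for TRIM9 minus GFP (SE 0.45) and 0.43 for BCL2L11 minus GFP (SE 0.45, limma adjusted p 0.9999). PRORP, the protein of mitochondrial RNase P that cleaves transfer RNA precursors, had 9.10 and 8.93 FPKM with TRIM9, 4.41 and 4.38 with BCL2L11 and 9.96 and 4.65 with GFP. PSMA6, a proteasome subunit, had 155 and 128 with TRIM9, 159 and 90.4 with BCL2L11 and 213 and 92.0 with GFP.

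Neither overlapping gene passed the test (limma adjusted p 0.9999 in each comparison with GFP). The 3 genes together took 187 and 160 bases per 1000000 aligned bases with TRIM9, 187 and 156 with BCL2L11 and 256 and 152 with GFP. The mean log2 of the sum differed by -0.19 for TRIM9 minus GFP. AL121594.1 took 4.10% and 6.04% of that sum with TRIM9, 15.04% and 37.2% with BCL2L11 and 8.04% and 27.0% with GFP. At the HSPA1B locus the sum itself was lower with TRIM9, at 283 and 201 bases per 1000000 aligned bases, against 639 and 359 with BCL2L11 and 511 and 539 with GFP, and AL671762.1 held at most 5.68% of it in any library.

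**Figure D2:**
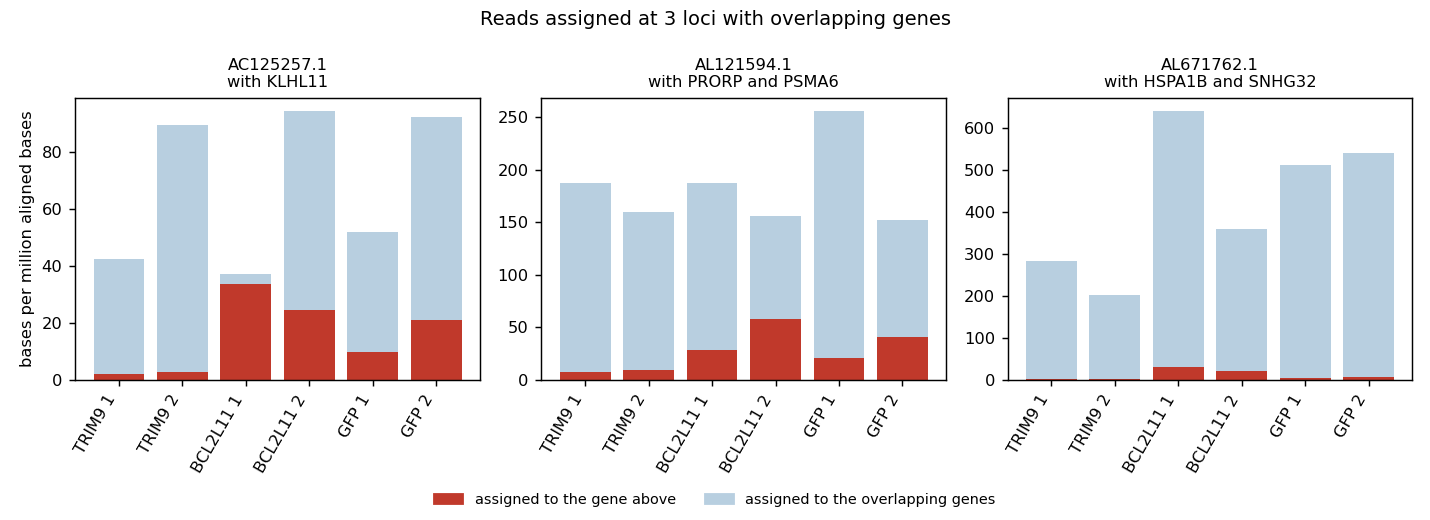
Bases per 1000000 aligned bases assigned at 3 loci to AC125257.1, AL121594.1 and AL671762.1 (red) and to the same-strand genes that overlap them (pale blue), in each poly-A library. At the AC125257.1 and AL121594.1 loci the mean heights of the groups differ less than the GFP replicates do. The red share there is smallest in the TRIM9 libraries, and at the HSPA1B locus the whole height is lower with TRIM9.

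**Figure D3:**
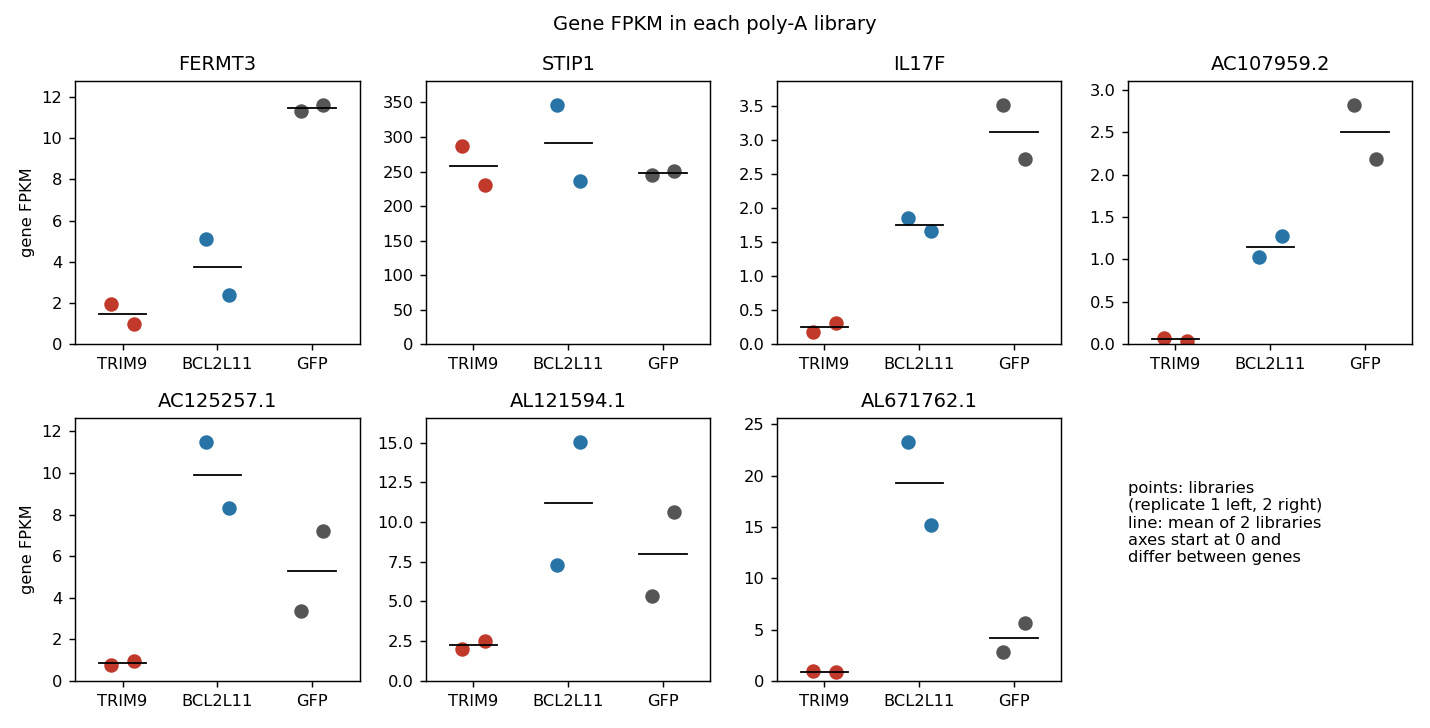
FPKM of the 7 genes in each poly-A library, as points for replicate 1 (left) and replicate 2 (right) with a line at the mean of 2, for TRIM9, BCL2L11 and GFP. FERMT3, IL17F and AC107959.2 are ordered TRIM9, BCL2L11, GFP from low to high, AC125257.1 and AL671762.1 are highest with BCL2L11, and STIP1 stays between 230 and 346 FPKM.

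The 7 genes thus showed more than 1 pattern over the 3 groups. Both TRIM9 libraries were below both GFP libraries for 6 of the 7, all but STIP1, where 11.2% of all tested genes were; since this contrast chose the genes, nothing is read from it. In that contrast limma called 1 gene of 15183 (0.00659%), TRIM9 itself (adjusted p 0.000184), and 175 genes (1.15%) had an unadjusted p below 0.05. TRIM9 below BCL2L11 below GFP, with no overlap, held for 3 genes (FERMT3, IL17F and AC107959.2), where 1.15% of tested genes had this order. TRIM9 below GFP below BCL2L11 held for 2 (AC125257.1 and AL671762.1), where 0.151% did. Low TRIM9 values, which chose the genes, are part of both orders, so nothing is read from these shares either. Both BCL2L11 libraries lay below both GFP libraries for 3 genes (12.3% of all tested) and above both for 2 (4.44%). No member passed in BCL2L11 against GFP by limma, where 1 gene of 15183 passed (0.00659%), BCL2L11 itself (adjusted p 6.92e-05). In that fit 83 genes had an unadjusted p below 0.05 (0.547%), 3 of them among the 7. The counts against GFP use the same GFP libraries that chose the genes, so nothing is read from them.

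In the direct comparison TRIM9 minus BCL2L11 on the log2(FPKM + 1) scale was -3.38 for AL671762.1, -2.54 for AC125257.1 and -1.84 for AL121594.1. Both TRIM9 libraries were below both BCL2L11 libraries for 6 of the 7, against 5.72% of all tested genes; the TRIM9 libraries that chose the genes enter this count. The difference was -1.14 for IL17F, -1.02 for AC107959.2, -0.92 for FERMT3 and -0.15 for STIP1. This order depends on the pseudocount of 1, which shrinks differences of low genes. As a ratio of mean FPKM, TRIM9 stood at 4.72% of BCL2L11 for AL671762.1, 4.95% for AC107959.2, 8.64% for AC125257.1, 14.1% for IL17F, 20.1% for AL121594.1, 38.9% for FERMT3 and 88.9% for STIP1. The libraries of FERMT3, IL17F and AC107959.2 followed each other over the 6 libraries, with Pearson r of log2(FPKM + 1) of 0.898 for FERMT3 and IL17F, 0.908 for FERMT3 and AC107959.2, and 0.988 for IL17F and AC107959.2. AC125257.1 and AL671762.1 followed each other with r of 0.957, and FERMT3 and STIP1 had r of 0.118. The points share their libraries and groups, and the choice of low TRIM9 values raises such correlations. The tested genes most like FERMT3 by the same measure were OVGP1 (0.993), WBP1L (0.986), FOSL1 (0.983), COG1 (0.977) and AP000553.3 (0.977). They are the highest among all tested genes over only 6 libraries, and r does not measure size. Their TRIM9 means were 17.2% (AP000553.3) to 79.6% (WBP1L) of the GFP means, against 12.7% for FERMT3.

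The 6 low genes lie at the edge of a wider tail. The TRIM9 minus GFP difference was at most that of AL671762.1 for 24 tested genes (0.158%), and the next genes outside were RPL13AP20 (-1.37), DUSP1 (-1.35) and AC139100.2 (-1.33). The median over all tested genes was -0.04 for TRIM9 minus GFP and -0.08 for BCL2L11 minus GFP.

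**Figure D4:**
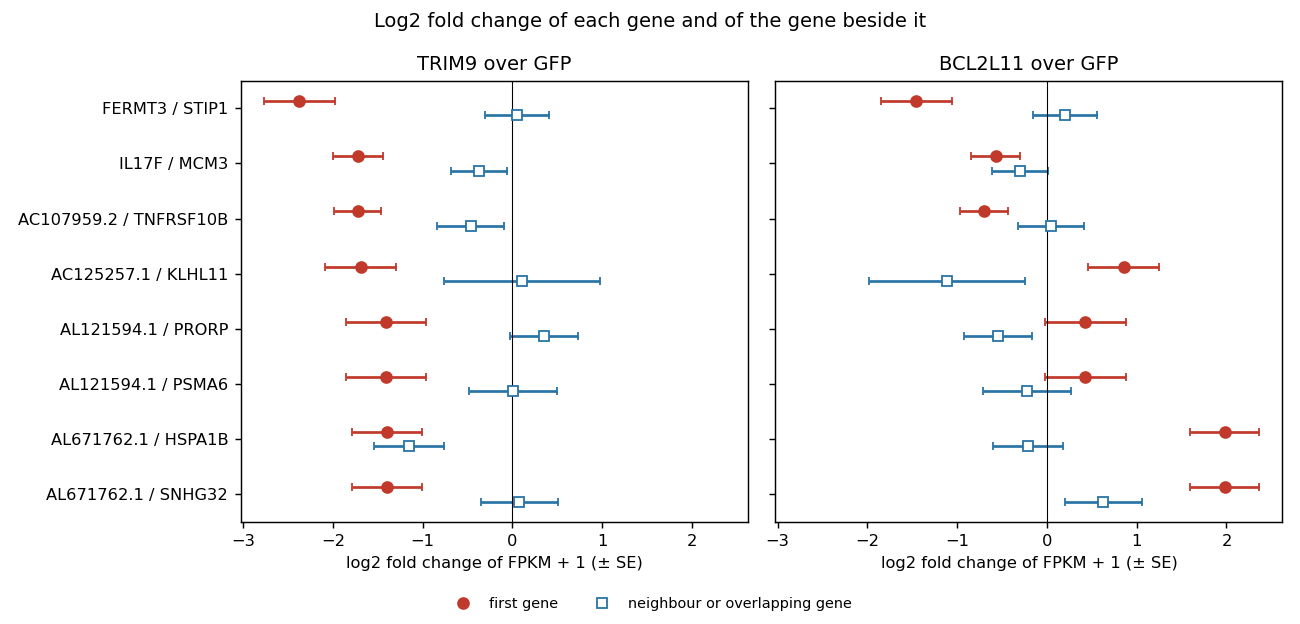
Log2 fold change of FPKM + 1 with its standard error for 8 pairs, TRIM9 over GFP on the left and BCL2L11 over GFP on the right. Filled circles are the genes described and open squares the upstream or overlapping gene named after the slash. In the TRIM9 panel the circles lie between -2.37 and -1.40, and HSPA1B, at -1.15, is the square nearest to its circle.

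The authors' deposited table for TRIM9 against GFP lists 4 of the 7, with log2 fold changes of -1.97 for FERMT3, 0.05 for STIP1, -1.50 for AC125257.1 and -1.22 for AL121594.1. The authors' deposited table for BCL2L11 against GFP gives -1.09 for FERMT3, 0.13 for STIP1, 1.24 for AC125257.1, 0.95 for AL121594.1 and 2.29 for AL671762.1. For TNFRSF10B the authors' deposited table gives 1.92 with BCL2L11, where the summed FPKM gave 0.04. For PRORP the authors' deposited tables give -1.08 with TRIM9 and -1.998 with BCL2L11, where the summed FPKM gave 0.35 and -0.54; the sources used here do not say how the tables add the transcripts of a gene.

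Genes of heat shock and of HSP90 co-chaperones were then read as upstream neighbours, since STIP1 and HSPA1B belong to them. Of 33 tested heat shock genes, 27 had a lower mean log2 level with TRIM9 than with GFP and none passed in the fit by group, with a median log2 difference of -0.23 against -0.04 over all tested genes. The share of all tested genes that were lower was not counted, so nothing is read from counts of lower genes. HSPA6, the strictly inducible HSP70 member, had 29.6 and 23.5 FPKM with TRIM9, 267 and 163 with BCL2L11 and 274 and 241 with GFP (TRIM9 minus GFP -3.24, SE 0.36, limma adjusted p 0.122, or 0.0360 with the library sets as a block). Its adjusted p ranged from 0.00774 with the compared groups alone to 0.9998 without GFP replicate 1, and the labels do not pair the libraries of a set. DNAJB1, an HSP40 co-chaperone, had 139 and 139 FPKM with TRIM9, 333 and 272 with BCL2L11 and 458 and 456 with GFP (-1.71, SE 0.32). BAG3, a nucleotide exchange factor of HSP70, had 32.9 and 27.8 FPKM with TRIM9, 57.6 and 54.5 with BCL2L11 and 64.8 and 80.8 with GFP (-1.23, SE 0.29; limma adjusted p 0.9999 for both genes). In BCL2L11 minus GFP 21 of the 33 were lower and none passed, with a median of -0.10 against -0.08 over all tested genes.

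The genes that follow members of the heat shock and co-chaperone lists were read next, though not every listed gene encodes a chaperone. The lists hold 20 genes with another gene of the strand within 20 kb downstream, and 13 of these downstream genes were tested. Apart from FERMT3, which carries no test here, none passed with TRIM9, and 8 of the 13 had a negative TRIM9 minus GFP difference. The median was -0.14 for both comparisons with GFP, against -0.04 for TRIM9 and -0.08 for BCL2L11 over all tested genes. A difference of -1 or less was seen for 2, FERMT3 and HSPA1B, which follows HSPA1A. GIPC1, 18620 bases after DNAJB1, had 55.6 and 25.3 FPKM with TRIM9, 51.5 and 28.6 with BCL2L11 and 27.6 and 37.8 with GFP. PNLDC1, 1813 bases after MRPL18, had 0.255 and 1.14 FPKM with TRIM9, 1.78 and 0.634 with BCL2L11 and 1.87 and 1.38 with GFP. The groups overlapped for GIPC1. Both TRIM9 libraries were below both GFP libraries for 4 of the 13, against 11.2% of all tested genes. These were HSPA1B, PNLDC1, ITFG2 and FERMT3. FERMT3 was chosen for its low TRIM9 values, and HSPA1B is itself on the heat shock list. Nothing is therefore read from the count of 4, the count of 8 or the median of these downstream genes. ITFG2, 7199 bases after FKBP4, had 8.37 and 6.13 FPKM with TRIM9, 9.39 and 7.15 with BCL2L11 and 10.4 and 9.69 with GFP. RCCD1, 777 bases after the myosin chaperone gene UNC45A, had 10.1 and 5.41 FPKM with TRIM9, 9.13 and 7.73 with BCL2L11 and 7.32 and 8.32 with GFP.

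Genes of the families of FERMT3, IL17F, MCM3 and STIP1 and of 3′ end processing were read for comparison. Of 16 tested kindlins, talins, integrins and their partners, FERMT3 included, 10 were lower and 6 higher with TRIM9, and the median was -0.02; FERMT2, the kindlin of most adherent cells, had 10.5 and 20.3 FPKM with TRIM9, 8.51 and 19.2 with BCL2L11 and 11.97 and 18.4 with GFP. Of 7 tested IL17 cytokines and receptors, IL17F included, 5 were higher and 2 lower with TRIM9. Of 13 tested genes of the MCM helicase, 12 were lower with TRIM9 (median -0.20) and 12 with BCL2L11 (median -0.26). Of 26 tested genes of 3′ end processing and termination, 19 were lower with TRIM9 and 18 with BCL2L11, with a median of -0.13 in each. Of the 15 HSP90 co-chaperones, 10 were lower with TRIM9 (median -0.12) and 7 with BCL2L11 (median 0.07). Over all tested genes the medians were -0.04 with TRIM9 and -0.08 with BCL2L11, so most tested genes were lower too. Their exact share was not counted, so nothing is read from the counts of lower and higher genes in the lists. In these lists no gene passed in limma in BCL2L11 against GFP, nor, apart from the members, which carry no test there, in TRIM9 against GFP; the lists were not tested as sets.

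All tested genes with a mean FPKM of at least 1 were also grouped by distance to the nearest such gene upstream on the strand, leaving out genes that overlap another on the strand. Where the upstream gene stood at 20 times the level or more and within 5 kb, as for STIP1 and FERMT3, 26 of 99 genes (26.3%) had both TRIM9 libraries below both GFP libraries, against the 11.2% of all tested genes. FERMT3 is among the 26 and IL17F is in the class at 5 to 20 kb, and both were chosen for low TRIM9 values. The classes were drawn after the data were seen. Genes near the filter can enter through the group where they are high, so nothing is read from the comparison with all tested genes. The share was 16.2% of 105 genes at 5 to 20 kb, 14.9% of 141 at 20 to 100 kb and 8.26% of 242 beyond 100 kb, and the median level of the 4 classes was alike, at 1.85 to 2.15 FPKM. Where the upstream gene stood at under 20 times the level, the share was 10.99% of 1183, 12.3% of 1598, 9.70% of 3000 and 11.1% of 5428 genes in the same order of distance. For BCL2L11 below GFP the shares in the first set of classes were 16.2%, 11.4%, 16.3% and 9.504%, where 12.3% of all tested genes were. The genes left out for overlap were also read where the upstream gene stood at 20 times the level or more. From near to far, 20% of 15, 11.1% of 36, 20% of 25 and 19.2% of 26 had both TRIM9 libraries below both GFP libraries. These shares did not fall steadily with distance.

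The sizes in the nearest class were small. The median TRIM9 minus GFP difference of the 99 genes was -0.13 (25th to 75th percentile -0.38 to 0.16), and it was -0.00097 in set 1 and -0.21 in set 2. Medians of the other 3 classes with a much higher upstream gene were 0.02, 0.02 and -0.03 from near to far. Those classes had medians of 0.28, 0.11 and -0.01 in set 1 and -0.23, -0.12 and -0.04 in set 2, so a lower median in set 2 was seen in all 4 classes. Only 2 of the 99, FERMT3 and ISG20, reached -1 or less.

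**Figure D5:**
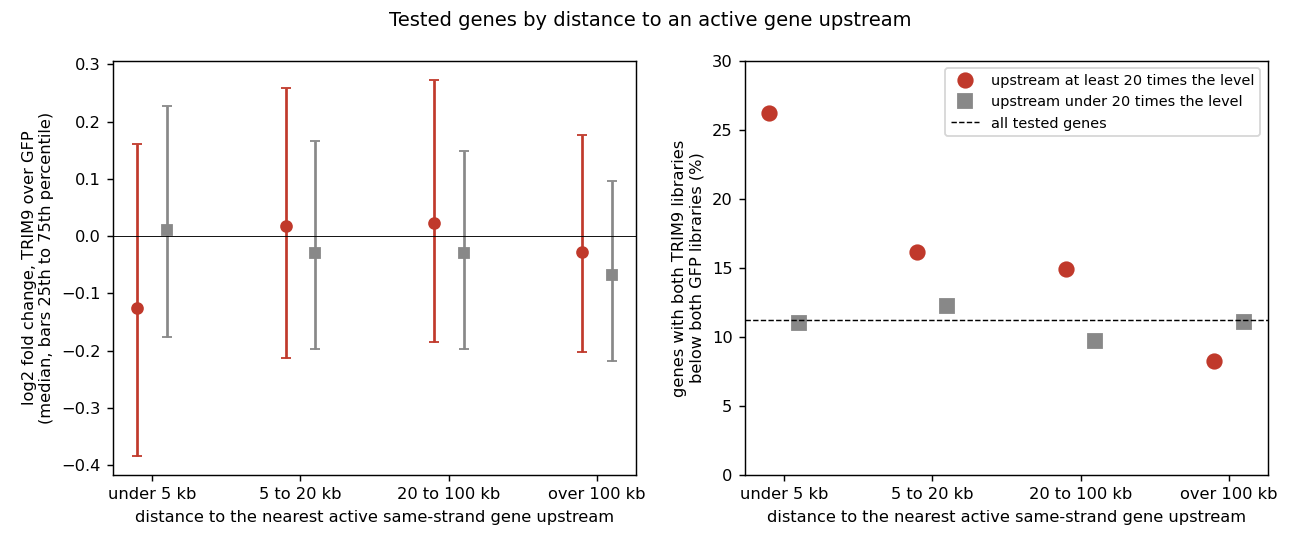
Tested genes without same-strand overlap, by distance to the nearest active gene upstream on the strand. The left axis gives the median log2 fold change of TRIM9 over GFP with the 25th to 75th percentile, the right axis the percentage of genes with both TRIM9 libraries below both GFP libraries, and the dashed line all tested genes (11.2%). The class within 5 kb of a gene at 20 times the level or more stands at 26.3%, and it holds FERMT3, which was chosen for low TRIM9 values.

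Among the 204 genes within 20 kb of an upstream gene at 20 times the level or more, FERMT3 and IL17F had the lowest TRIM9 minus GFP differences, and the rule that chose them used that value. The next 3, named after their values were seen, did not pass. ISG20, an interferon-induced exonuclease 3872 bases after AEN, had 0.721 and 0.441 FPKM with TRIM9, 1.91 and 1.73 with BCL2L11 and 2.82 and 3.02 with GFP (-1.31, SE 0.28, limma adjusted p 0.9999). VWCE, 4135 bases after the DNA damage-binding gene DDB1, had 2.06 and 1.03 FPKM with TRIM9, 2.35 and 1.89 with BCL2L11 and 3.88 and 3.55 with GFP (-0.92, SE 0.32, limma adjusted p 0.9999). LAT2, a lymphocyte adaptor 2551 bases after the translation factor gene EIF4H, had 1.47 and 1.022 FPKM with TRIM9, 3.36 and 3.34 with BCL2L11 and 3.29 and 3.07 with GFP (-0.90, SE 0.29, limma adjusted p 0.9999), so that its BCL2L11 and GFP levels lay together. Whether RNA running on from the upstream gene has a part in any of these levels was not tested, since the tables hold no reads between genes.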

How the data were processed

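Poly-A RNA of HEK293T cells was sequenced in 6 libraries, and the 6 small RNA libraries were not used here. The submitters' processing notes name the build hg38 and the tools STAR, StringTie 2.1.3, cutadapt 3.4 and DESeq2 1.20.0. For 250719 annotated transcripts the deposited StringTie tables hold FPKM and, per the file headers, coverage signal, which is mean depth. The authors' deposited gene tables give a log2 fold change for part of the genes (5930 and 6131).

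Gene FPKM was summed over the transcripts of a gene ID, and aligned bases are coverage times transcript length. Tested were the 15183 genes that reached 1 FPKM in 2 or more libraries, so a gene can enter through the group where it is high. log2(FPKM + 1) was fitted in limma 3.58.1 (R 4.3.3; trend, group only, all 6 libraries), with two-sided p adjusted after Benjamini and Hochberg over all tested genes and a threshold of 0.05. Fold changes on this scale understate changes of low genes. The smallest p of an exact test is 0.333 here, with 2 libraries a group.

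The members and the 8 gene lists were chosen with earlier results of these data known. Named were the members, their upstream, downstream and overlapping genes, BCL2L11 and TRIM9, and up to 4 genes of lowest p per list. Heat shock and co-chaperone genes with a downstream neighbour and the 5 genes most like FERMT3 were named too. AC107959.1, ISG20, VWCE, LAT2, FERMT2, IL17A and the genes just outside the range were named after their values were seen. Alternatives were TMM scaling, a pseudocount of 0.1, a filter of 5 or none, a fit of only the groups compared, the library sets as a block, leaving out each library, and transcripts of more than 1 exon. Sums over overlapping genes, over the loci of HSPA1B, HSPA1A and SNHG32, and the grouping by distance were chosen after seeing the data.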

Additional observations from a re-analysis of the deposited data

How the results depend on the processing

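The 6 low genes stayed lower with TRIM9 than with GFP under all alternatives that could be run. They were chosen for low TRIM9 values, and both TRIM9 libraries lay below both GFP libraries for each. Leaving out 1 library could therefore not turn the sign, and nothing is read from this. The log2 differences were -2.97 to -2.08 for FERMT3, -3.23 to -1.58 for IL17F and -4.05 to -1.59 for AC107959.2. They were -2.40 to -1.23 for AC125257.1, -1.85 to -0.97 for AL121594.1 and -2.02 to -1.002 for AL671762.1. The filter of 5 removed IL17F and AC107959.2, and the restriction to more than 1 exon removed AC125257.1. No member passed in BCL2L11 against GFP under any alternative (lowest adjusted p 0.486, for AL671762.1, without 1 library). The count of genes called in limma was 15 for BCL2L11 against GFP with no filter, where genes near 0 enter. For TRIM9 against GFP it was 18 with no filter and 5 with the compared groups alone. Leaving out 1 library gave 1 to 5 calls for TRIM9 and 1 to 1 for BCL2L11, the 5 being without either BCL2L11 library. With the term for the library sets (replicate block) it was 6 for TRIM9 and 1 for BCL2L11; the labels do not pair the libraries, whose deviations correlated at 0.49 to 0.83 between groups. HSPA6 passed for TRIM9 against GFP with the compared groups alone (adjusted p 0.00774), with the block (0.0360), and without BCL2L11 replicate 1 (0.00823) or 2 (0.00915). Some differences turned sign when 1 library was left out, that of KLHL11 among them (-1.12 for BCL2L11 minus GFP over all libraries). For BCL2L11 minus GFP the lowest and highest values were -0.075 and 0.48 for STIP1, -0.047 and 0.90 for AL121594.1 (-0.01 without GFP replicate 1), -0.29 and 0.37 for TNFRSF10B (-0.24 without BCL2L11 replicate 2), -2.54 and 0.31 for KLHL11, -0.82 and 0.38 for PSMA6 (0.18 without BCL2L11 replicate 2), -0.63 and 0.20 for HSPA1B, -0.65 and 0.051 for HSPA6, -0.11 and 0.26 for TRPT1 (-0.09 without GFP replicate 2), -0.21 and 0.25 for RHOBTB2 (-0.03 without BCL2L11 replicate 1), -0.40 and 0.24 for ACLY (0.20 without BCL2L11 replicate 1, and 0.032 with TMM scaling), -0.056 and 0.33 for FAM177A1 and -0.21 and 1.01 for HSPA1A. For TRIM9 minus GFP they were -0.11 and 0.21 for STIP1, -0.38 and 0.59 for KLHL11 (-0.23 without GFP replicate 1), -0.13 and 0.83 for PRORP, -0.60 and 0.61 for PSMA6 (-0.13 without TRIM9 replicate 1), -0.30 and 0.46 for SNHG32 (-0.06 without GFP replicate 1), -0.16 and 0.55 for TRPT1, -0.39 and 0.064 for RHOBTB2, -0.44 and 0.20 for ACLY (0.14 without TRIM9 replicate 1), -1.16 and 0.058 for HSPA1A (0.82 for transcripts of more than 1 exon), -0.10 and 0.36 for SNORD48 and -0.36 and 0.84 for NUDT22. The cause of these turns was not tested. The HSPA1A and HSPA1B values here are those of the assembled chromosome, not of the sum over loci.

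Depth limits IL17F and AC107959.2 most, since their TRIM9 libraries held 0.537 to 1.28 kb of aligned bases. Assignment of reads among overlapping models limits AC125257.1, AL121594.1 and AL671762.1. With 2 libraries per group the spread of a single gene is poorly known, and the shared fit stands in for it.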
